A study of Mus musculus with 4 samples.

Results

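Has2, Hapln1, Vcan and Cd44 encode parts of the hyaluronan matrix that fills the embryonic heart valves. They were chosen by name, as 4 of the 30268 genes in a table of single-cell UMI counts from embryonic mouse hearts. A UMI is a tag that lets each captured transcript be counted once. The hearts came from E14.5 and E13.5 embryos, with 1 Drop-seq library for each genotype at each stage. In Drop-seq, single cells are caught in droplets with barcoded beads that capture the 3' ends of transcripts.

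The knockout hearts, called Lats1/2 CKO (conditional knockout), carried Lats1/2 F/F, and both the knockout and the control hearts also carried Wt1 CreERT2/+ and Rosa26mTmG/+. By these stated genotypes Cre recombinase is present in the controls as well, and they differ from the knockouts in the floxed Lats1 and Lats2 alleles. CreERT2 acts after tamoxifen and is driven here from the Wt1 locus, which is active in the epicardium, the outer cell layer of the heart. The mTmG reporter makes EGFP once recombined. Lats1 and Lats2 are kinases of the Hippo pathway. The sources used here do not give the number of embryos per library or the tamoxifen schedule, and p-values measure the spread between libraries, which may be technical.

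Hyaluronan is a long sugar polymer that synthases such as Has2 extrude through the cell membrane. In the extracellular space it is bound by versican, the large chondroitin sulphate proteoglycan encoded by Vcan, and link proteins such as Hapln1 fasten both together. Cd44 is the best known cell surface receptor of hyaluronan. In the early heart this gel swells the endocardial cushions, the cells that will form the valves migrate into it, and mice without Has2 or Vcan fail to form cushions.

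After removal of cells with fewer than 500 UMIs, fewer than 300 genes or over 20% mitochondrial UMIs, 21495 of 24849 cells were kept. The libraries held 5597 (Lats1/2 CKO E14.5), 5505 (control E14.5), 5915 (Lats1/2 CKO E13.5) and 4478 cells (control E13.5), with median depths of 1035, 955, 2015 and 1588 UMIs in that order. E14.5 cells were thus shallower than E13.5 cells, and 14 cell barcodes occurred in 2 libraries. The cells removed were 1797 (Lats1/2 CKO E14.5), 1535 (control E14.5), 8 (Lats1/2 CKO E13.5) and 14 (control E13.5). Cells were placed into 9 classes by marker genes that include none of the 4 genes. Apart from fibroblasts and cardiomyocytes, a class needed a marker excess of at least 2 SD over the number expected at the cell's depth. Fibroblasts needed a Tcf21 UMI, at least 2 fibroblast markers, fewer valve mesenchyme markers than expected and no other class at 2 SD. Cardiomyocytes needed at least 3% of their UMIs from cardiomyocyte markers and no other class at 2 SD. The gates held 1500 valve mesenchyme, 384 valve endothelium, 1515 endocardium, 648 fibroblast and 610 epicardium cells, with 65 to 583 cells per library, and 6629 cells fell in no gate. Valve mesenchyme cells carried a median of 3 of 12 markers such as Sox9, Scx and Twist1, and 95.4% of them also fell in the cluster of that name in an unsupervised clustering. The same figure was 88.3% for valve endothelium, 91.2% for endocardium, 92.5% for epicardium and 77.5% for fibroblasts, of which 74 cells fell in the valve mesenchyme cluster. The clusters were larger than the gates. Of 3539 cells in the valve mesenchyme cluster, 1431 were in the gate of that name and 1965 in no gate. The gates held 339 of 915 cluster cells for valve endothelium, 1382 of 2271 for endocardium, 564 of 642 for epicardium and 502 of 1678 for fibroblasts. Valve mesenchyme cells also carried a median of 4 of 10 fibroblast panel genes, which include the collagen genes Col1a1 and Col3a1, so these 2 classes were separated by Tcf21 and the valve markers.

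Hapln1 (ENSMUSG00000021613) and Vcan (ENSMUSG00000021614) are neighbours. In GENCODE M21 on GRCm38, Hapln1 spans chr13:89539796-89611652 on the plus strand and Vcan spans chr13:89655312-89742509 on the minus strand. They face each other across 43.7 kb with 0 protein-coding genes between them. Has2 (ENSMUSG00000022367) spans chr15:56665627-56694539 on the minus strand, and Cd44 (ENSMUSG00000005087) spans chr2:102811141-102901665 on the minus strand. The 250 bases before the RefSeq start are shown for the neighbouring pair, because both genes were high in valve cells while their levels in the 2 valve classes ran in opposite orders. The windows come from RefSeq on GRCm38.p6, where 3 of the 4 genes matched, and run 5' to 3' on the gene's strand. The Hapln1 window, chr13:89540386-89540635, lies within the GENCODE gene span because the RefSeq start is further in, and the Vcan window is chr13:89742513-89742762. Capitals mark the GC box (GGGCGG or its complement CCGCCC) and the CCAAT box (CCAAT or its complement ATTGG), 2 common promoter elements.
Hapln1 upstream window: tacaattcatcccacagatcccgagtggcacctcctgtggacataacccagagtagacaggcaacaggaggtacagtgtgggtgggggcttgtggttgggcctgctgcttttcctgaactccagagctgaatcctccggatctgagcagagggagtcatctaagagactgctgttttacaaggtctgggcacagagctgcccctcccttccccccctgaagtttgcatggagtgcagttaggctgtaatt
Vcan upstream window: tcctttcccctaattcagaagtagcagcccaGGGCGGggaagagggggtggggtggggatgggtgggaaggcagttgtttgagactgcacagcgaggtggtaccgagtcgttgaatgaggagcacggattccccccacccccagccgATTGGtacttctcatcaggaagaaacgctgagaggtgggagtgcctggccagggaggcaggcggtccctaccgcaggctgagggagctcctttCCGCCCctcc
The Vcan window held 2 GC boxes and 1 CCAAT box and was 62.4% G or C. The Hapln1 window held neither and was 54.4% G or C, against a median of 52.4% over 32851 windows. A GC box stood in 32.7% and a CCAAT box in 33.8% of these windows. The motif GGAATG (complement CATTCC), bound by the TEAD factors that act downstream of the Hippo pathway, stood in 12.6% of windows and in 0 of the 3 windows of Hapln1, Vcan and Cd44. These matches describe letters, not binding.

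Has2, the synthase, was a valve mesenchyme gene. Its level there was 80.9 CPM in Lats1/2 CKO E14.5, 68.8 in control E14.5, 131 in Lats1/2 CKO E13.5 and 106 in control E13.5, from 20, 20, 138 and 76 UMIs. CPM is the gene's count scaled to a common total of UMIs for each class and library. All 4 libraries stood above every other class, and the next class, fibroblasts, stood at 23.03, 13.14, 15.05 and 13 CPM, from 3 to 14 UMIs. The mean was 96.6 ± 27.6 CPM in valve mesenchyme, 13.3 in valve endothelium, 1.61 in endocardium, 16.1 in fibroblasts and 4.77 in epicardium (n = 4 libraries each). Below valve mesenchyme, no neighbouring classes in the order of levels had ranges that did not overlap.

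Has2 transcripts were sparse even in valve mesenchyme. After each cell was thinned to 500 UMIs, a depth every kept cell reached, 3.10% to 4.28% of valve mesenchyme cells of a library had a Has2 UMI (6.90% to 18.6% without thinning). The share was 0.0527% to 0.224% in cardiomyocytes, a class taken as the background, whose median depths of 1106 to 2826 UMIs before thinning compare with 854 to 1635 in valve mesenchyme. Valve endothelium held 0, 1, 5 and 8 Has2 UMIs in Lats1/2 CKO E14.5, control E14.5, Lats1/2 CKO E13.5 and control E13.5. The antisense gene Has2os shares 4596 bases with Has2, at the 5' ends of both genes and away from the 3' ends that Drop-seq captures, and the sources used here do not state the strand used in counting. Has2os itself had 22 UMIs in valve mesenchyme against 254 of Has2.

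Hapln1, the link protein, was highest in valve endothelium rather than valve mesenchyme. Valve endothelium stood at 496 CPM in Lats1/2 CKO E14.5, 957 in control E14.5, 1125 in Lats1/2 CKO E13.5 and 1781 in control E13.5. Valve mesenchyme stood at 243, 372, 508 and 765 CPM in the same libraries. Within each of the 4 libraries the order was valve endothelium, valve mesenchyme, endocardium, although the ranges over libraries overlapped. Endocardium followed with 135, 191, 222 and 382 CPM, and fibroblasts with 108, 171, 81.7 and 88.8 CPM.

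The mean of Hapln1 was 1090 ± 532 CPM in valve endothelium, 472 ± 224 in valve mesenchyme, 233 ± 106 in endocardium, 112 ± 40.55 in fibroblasts and 17.5 ± 24.0 in epicardium (SD, n = 4). A Hapln1 UMI was seen in 21.5% to 46.8% of thinned valve endothelium cells, 12.4% to 25.0% of valve mesenchyme cells, 5.33% to 11.2% of endocardium cells and 1.79% to 4.69% of fibroblasts. Cardiomyocytes gave 0.213% to 0.791% and epicardium 0 to 0.485%. Epicardium had 4, 0, 7 and 21 Hapln1 UMIs in Lats1/2 CKO E14.5, control E14.5, Lats1/2 CKO E13.5 and control E13.5, and its CPM was above that of cardiomyocytes in 3 of 4 libraries. Among the endothelial classes, coronary endothelium averaged 77.9 CPM and was lower than valve endothelium in every library.

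Vcan, the proteoglycan, was the most abundant of the 4 in valve mesenchyme. It reached 2161 CPM in Lats1/2 CKO E14.5, 2298 in control E14.5, 3546 in Lats1/2 CKO E13.5 and 2805 in control E13.5. Valve endothelium stood at 875, 891, 843 and 1099 CPM in those libraries, so the 2 ranges did not overlap. Fibroblasts came next by mean with 384, 315, 370 and 362 CPM, below every valve endothelium library. Mural cells, another of the 9 classes, overlapped with them at 226, 435, 267 and 411 CPM. Fibroblasts stood above mural cells in 2 of 4 libraries. These are levels of 3' tags, 1 per transcript, so gene length does not enter the comparison between genes.

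The mean Vcan level was 2702 ± 627 CPM in valve mesenchyme, 927 ± 116 in valve endothelium, 358 ± 29.7 in fibroblasts, 170 ± 22.5 in endocardium and 82.0 ± 43.0 in epicardium (SD, n = 4). Cardiomyocytes, at 293 ± 41.1 CPM, stood above endocardium in all 4 libraries with no overlap. A Vcan UMI was seen in 54.0% to 73.6% of thinned valve mesenchyme cells and 35.4% to 40.9% of valve endothelium cells. Epicardium gave 2.75% to 4.37% and macrophages 0 to 4.52%.

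Cd44, the receptor, did not follow the valve pattern. Macrophages averaged 118 ± 24.7 CPM, valve mesenchyme 72.8 ± 23.04, coronary endothelium 67.1 ± 4.15 and epicardium 48.3 ± 21.8 (SD, n = 4). In valve mesenchyme it stood at 44.5 CPM in Lats1/2 CKO E14.5, 68.8 in control E14.5, 77.8 in Lats1/2 CKO E13.5 and 100.2 in control E13.5. Those values overlap with coronary endothelium, epicardium and cardiomyocytes, and no 2 neighbouring classes in the order had separate ranges. After thinning, 2.21% to 4.51% of valve mesenchyme cells had a Cd44 UMI, against 1.35% to 3.47% of cardiomyocytes and 0 to 1.56% of fibroblasts. Valve endothelium held 2, 4, 4 and 21 Cd44 UMIs in Lats1/2 CKO E14.5, control E14.5, Lats1/2 CKO E13.5 and control E13.5, so 1 library held most of its count.

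**Figure D1:**
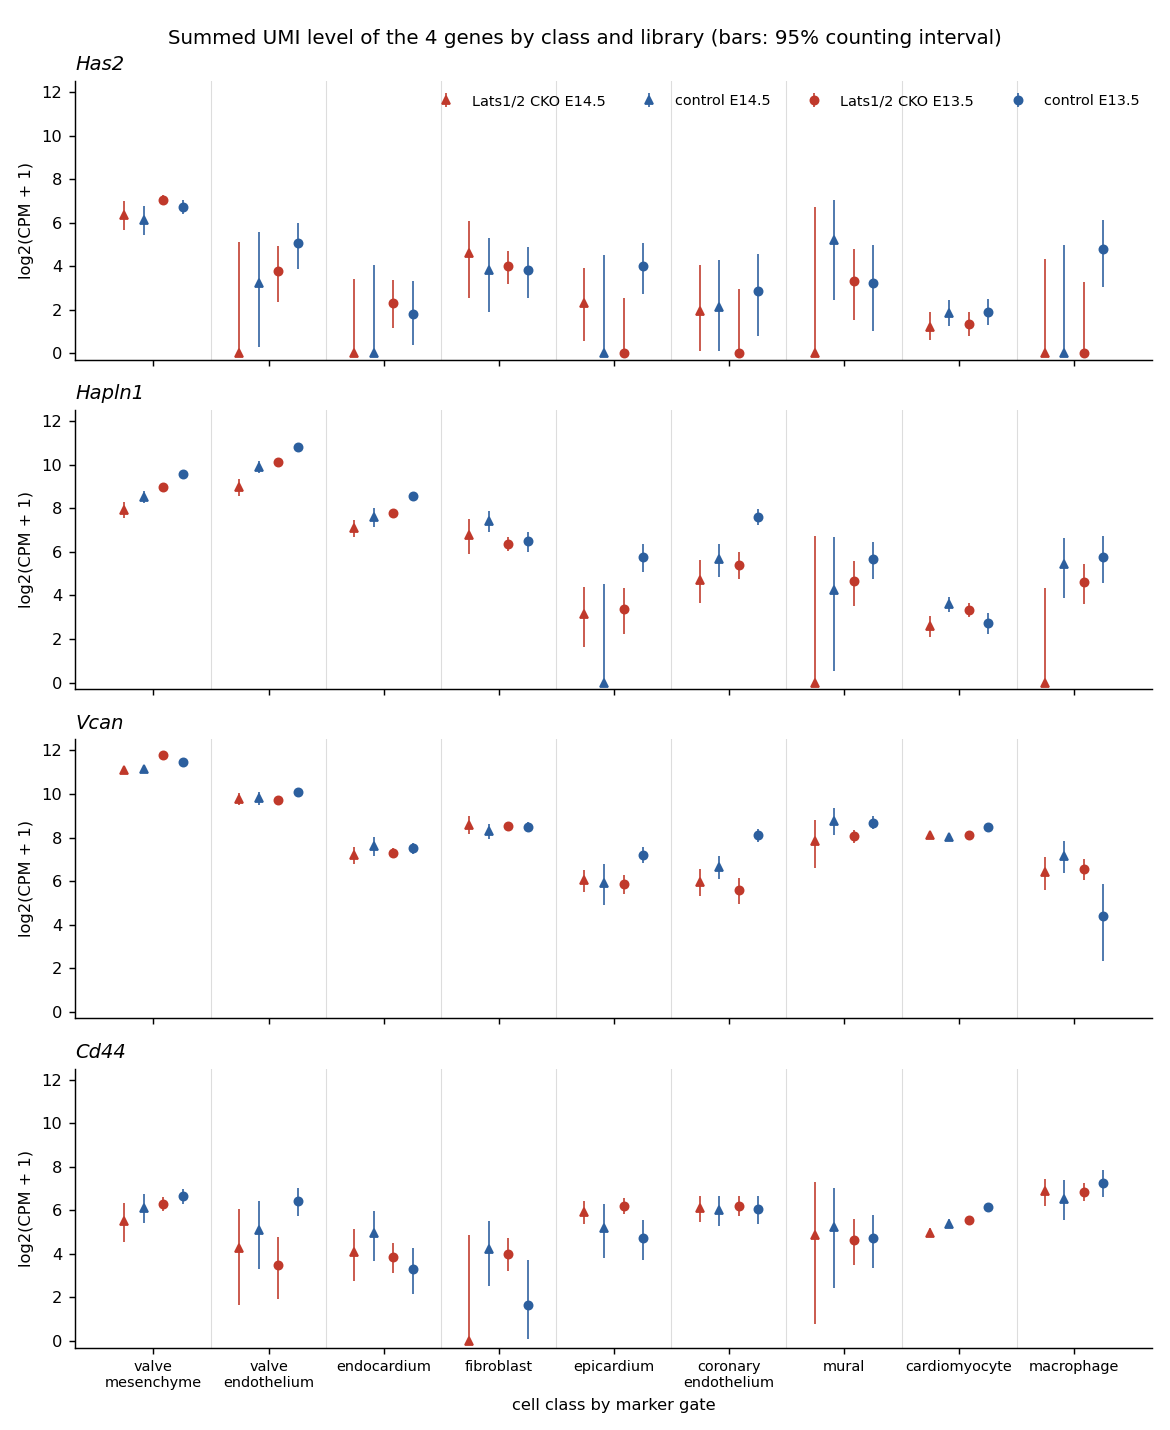
Level of each gene as log2(CPM + 1) in the 9 classes, with 1 point per library and bars for the 95% counting interval, which covers counting error only. Has2 and Vcan stand highest in valve mesenchyme, Hapln1 in valve endothelium, and Cd44 has no class set apart.

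The class differences were tested in one edgeR quasi-likelihood fit of the summed counts of the 5 classes of interest, with library as a block, over 8618 genes. Valve mesenchyme over fibroblasts separated the 2 mesenchymal classes: all 4 genes were higher, where 9.1% of all genes tested were called higher and 10.6% lower. Vcan differed by 2.91 on the log2 scale (SE 0.15, adjusted p = 7.22e-19), Cd44 by 2.82 (SE 0.44), Has2 by 2.81 (SE 0.34) and Hapln1 by 2.27 (SE 0.22), the last 3 with adjusted p of at most 4.76e-06. These calls held in each of the 11 alternatives run for each gene.

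Valve mesenchyme over valve endothelium divided the set. Has2 (log2 2.69, SE 0.40, adjusted p = 9.46e-07), Vcan (1.54, SE 0.14, adjusted p = 5.13e-12) and Cd44 (1.08, SE 0.41, adjusted p = 0.047) were higher in the mesenchyme, where 12.1% of genes tested were called higher. Hapln1 was lower, at -1.22 (SE 0.17, adjusted p = 2.37e-07), where 14.4% of genes were called lower. The Hapln1 call was lost without the library block (adjusted p = 0.0552). The Cd44 call did not hold: its adjusted p was 0.542 without Lats1/2 CKO E13.5 (log2 0.49), 0.0582 without Lats1/2 CKO E14.5, 0.0833 without control E14.5 and 0.268 in DESeq2.

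Valve mesenchyme over endocardium gave 4 higher genes, against 16.1% of genes tested. Has2 differed by 5.19 (SE 0.42) and Vcan by 3.96 (SE 0.15), the Has2 value resting on 7 UMIs in all of endocardium. Cd44 differed by 2.38 (SE 0.38) and Hapln1 by 0.95 (SE 0.18, adjusted p = 3.45e-05), and the Hapln1 call was lost without the library block (adjusted p = 0.148). Over epicardium, 3 genes were higher in valve mesenchyme, against 14.3% of genes tested: Vcan (5.02, SE 0.17), Hapln1 (4.65, SE 0.28) and Has2 (4.40, SE 0.43, with 8 UMIs in all of epicardium). Cd44 did not pass (0.43, SE 0.32, adjusted p = 0.329).

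Valve endothelium over endocardium compares the lining of the valves with that of the chambers, and 3 genes were higher in valve endothelium, against 6.09% of genes tested. Vcan differed by 2.43 (SE 0.16, adjusted p = 3.45e-15) and Hapln1 by 2.17 (SE 0.18, adjusted p = 3.34e-12). Has2 was 5.66-fold higher (adjusted p = 0.0193), and the log2 difference was 1.76 with adjusted p of 0.332 without control E13.5, the library that held 8 of the 14 Has2 UMIs of valve endothelium. It was also lost without the library block (adjusted p = 0.0731). Cd44 did not pass (1.30, SE 0.53, adjusted p = 0.128), and its sign turned without control E13.5 (-0.07).

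The remaining pairs place fibroblasts and epicardium. Valve endothelium had more Hapln1 (3.49, SE 0.22), Vcan (1.38, SE 0.15) and Cd44 (1.74, SE 0.60) than fibroblasts, where 15.8% of genes were called higher. The Cd44 call was lost without control E13.5 (0.25, adjusted p = 0.826), and Has2 did not pass (0.12, SE 0.58, adjusted p = 0.912). Valve endothelium also had more Hapln1 (5.87, SE 0.27) and Vcan (3.48, SE 0.18) than epicardium, where 15.5% were called higher, and neither Has2 (1.71, SE 0.72) nor Cd44 (-0.65, SE 0.45) passed. Endocardium had more Hapln1 than fibroblasts (1.32, SE 0.23, lost without the library block at adjusted p of 0.0902), where 17.9% of genes were called higher. It had less Vcan (-1.05, SE 0.16) and less Has2 (-2.38, SE 0.63), where 18.3% were called lower, and the Has2 call was lost with stricter gates (adjusted p = 0.169). Fibroblasts had more Hapln1 (2.38, SE 0.36) and Vcan (2.11, SE 0.19) than epicardium, where 11.1% of genes were called higher. They had less Cd44 (-2.39, SE 0.48, adjusted p = 0.000203), where 11.8% were called lower. Endocardium had more Hapln1 (3.71, SE 0.30) and Vcan (1.06, SE 0.19) than epicardium, where 17.6% were called higher, and less Cd44 (-1.95, SE 0.41), where 18.1% were called lower.

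**Figure D2:**
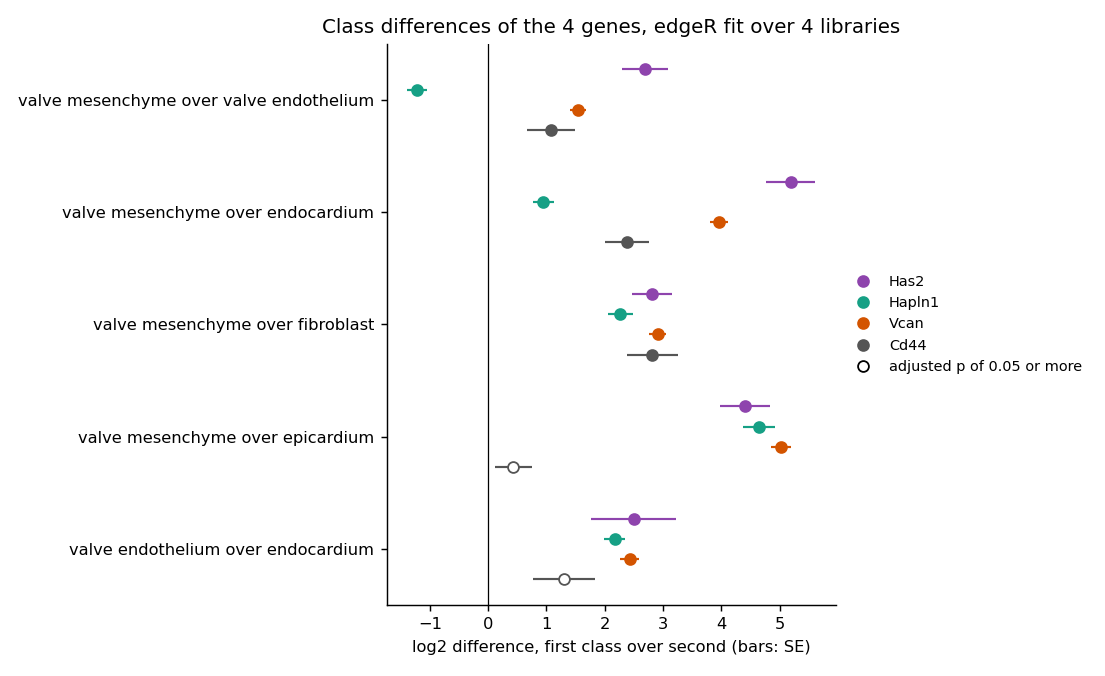
Log2 difference of each gene (x axis, first class over second) for valve mesenchyme over each of the other 4 classes and for valve endothelium over endocardium, with SE bars, from the edgeR fit over 4 libraries. Filled points passed an adjusted p of 0.05, and Hapln1 in valve mesenchyme over valve endothelium is the single point below 0 among these 5 pairs.

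Cells with UMIs of more than 1 of the genes were most frequent in the valve classes. Vcan and Hapln1 were each seen most often there, so such cells are more frequent even without a link between the genes. The share expected from the single genes was not computed. After thinning, at least 2 of the 4 genes had a UMI in 9.29% of valve mesenchyme cells of Lats1/2 CKO E14.5 and 13.03% of control E14.5, and in 19.9% of Lats1/2 CKO E13.5 and 25.0% of control E13.5. Valve endothelium gave 7.69% and 15.1% at E14.5, and 13.1% and 23.9% at E13.5, each time Lats1/2 CKO before control. The share was 0.474% to 1.33% in endocardium, 1.14% to 2.34% in fibroblasts and 0 in all 4 epicardium libraries. No thinned cell of the 5 classes carried all 4 genes.

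In valve mesenchyme, cells with a Hapln1 UMI had a Vcan UMI more often than cells without one in all 4 libraries. The shares were 64.3% against 55.6% in Lats1/2 CKO E14.5 and 64.7% against 52.4% in control E14.5. They were 76.0% against 73.1% in Lats1/2 CKO E13.5 and 81.1% against 64.3% in control E13.5. In valve endothelium the same held in 3 of 4 libraries, with 29.6% against 43.5% in control E14.5. Has2 and Hapln1 went the other way in valve mesenchyme: Hapln1 was seen in 0 of 7 Has2-positive cells against 12.8% of the others in Lats1/2 CKO E14.5, and in 1 of 11 against 13.2% in control E14.5. At E13.5 it was seen in 2 of 21 against 18.6% in Lats1/2 CKO and in 4 of 19 against 25.2% in control. Cells of 1 library are not replicates, so these shares carry no test.

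**Figure D3:**
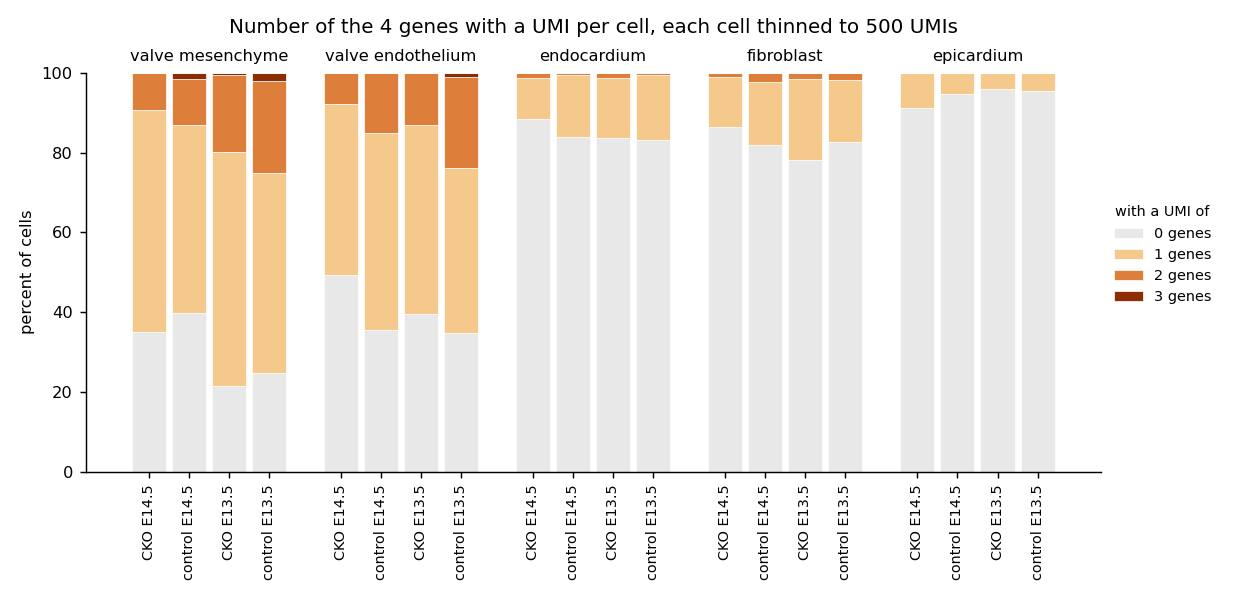
Percent of cells (y axis) with a UMI of 0, 1, 2 or 3 of the 4 genes, per class and library, each cell thinned to 500 UMIs. Cells with 2 or more genes make up 7.69% to 25.0% of the 2 valve classes and at most 2.34% of the others.

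The genotype comparison asks how the loss of Lats1 and Lats2 in Wt1-expressing cells changed these genes within a class. None of the 4 genes was called in edgeR in any class, and DESeq2 called 0 as well. The background of calls was also low: 0.11% of 8199 genes tested in valve mesenchyme, 0.84% of 4403 in valve endothelium, 0.517% of 8319 in endocardium, 0.167% of 6579 in fibroblasts and 0.103% of 7762 in epicardium. The fit has 1 residual degree of freedom. All 4 genes passed the filter on low counts in valve mesenchyme, Hapln1 and Vcan passed it in valve endothelium, endocardium and fibroblasts, and Vcan and Cd44 passed it in epicardium. At an unadjusted p under 0.05 stood 1 gene each in valve mesenchyme, valve endothelium, endocardium and epicardium, and 0 in fibroblasts. Over all genes tested that share was 4.56% in valve mesenchyme, 6.04% in valve endothelium, 5.77% in endocardium, 7.68% in epicardium and 5.58% in fibroblasts. In DESeq2 it was 1 member in valve endothelium and 0 in the other 4 classes. The DESeq2 share over all genes tested was 0.537% in valve mesenchyme and 0.749% in valve endothelium. It was 0.673% in endocardium, 1.1% in epicardium and 0.79% in fibroblasts.

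Hapln1 stood lower in Lats1/2 CKO hearts at both stages in each valve and endocardial class. In valve endothelium it was 496 CPM in Lats1/2 CKO against 957 in control at E14.5, and 1125 against 1781 at E13.5 (log2 -0.78, SE 0.27, adjusted p = 0.22). In valve mesenchyme it was 243 against 372 CPM at E14.5 and 508 against 765 at E13.5 (log2 -0.59, SE 0.20, adjusted p = 0.882). In endocardium it was 135 against 191 CPM at E14.5 and 222 against 382 at E13.5 (log2 -0.68, SE 0.22, adjusted p = 0.319). Counting intervals excluded equal levels at both stages in both valve classes, and at E13.5 alone in endocardium. Coronary endothelium, which had no fit of its own, stood at 25.2 CPM in Lats1/2 CKO against 49.8 in control at E14.5, and 41.1 against 196 at E13.5. In summed counts the direction was not limited to these classes. Fibroblasts stood at 108 against 171 CPM at E14.5 and 81.7 against 88.8 at E13.5. As a mean over cells, fibroblasts went the other way, at 120.1 against 96.67 CPM at E14.5 and 83.79 against 81.86 at E13.5. The fitted fibroblast value also turned sign without the deepest cells, as given below. Mural cells and macrophages were lower at both stages, from at most 12 UMIs per library. In cardiomyocytes and epicardium the direction differed between the stages.

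The other members gave smaller or less steady values. Vcan in valve mesenchyme was 2161 CPM in Lats1/2 CKO against 2298 in control at E14.5, and 3546 against 2805 at E13.5 (log2 0.14, SE 0.17, adjusted p = 0.999). Has2 there gave log2 0.29 (SE 0.27) and Cd44 -0.44 (SE 0.29), neither called, and Vcan in valve endothelium gave -0.20 (SE 0.27). In epicardium, the class of the Wt1 driver, Cd44 was 59.2 CPM in Lats1/2 CKO against 35.7 in control at E14.5, and 73.1 against 25.2 at E13.5. Both knockout libraries stood above both control libraries, and the difference did not pass (log2 1.21, SE 0.44, adjusted p = 0.531). Vcan in epicardium was 65.1 against 59.4 CPM at E14.5 and 57.2 against 146 at E13.5, and Hapln1 held 4 UMIs against 0 at E14.5 and 7 against 21 at E13.5.

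Egfp, made from the reporter after recombination, was highest in epicardium. There it was 584 CPM in Lats1/2 CKO against 35.7 in control at E14.5, and 638 against 80.7 at E13.5. The stated genotypes give knockouts and controls the same driver and reporter, so equal recombination cannot be assumed from them. The cause of this gap was not tested. In valve mesenchyme it was 36.4 against 27.5 CPM at E14.5 and 30.4 against 9.74 at E13.5, and in valve endothelium 18.1 against 33.0 and 33.3 against 20.1, next to a range of 10.8 to 24.0 CPM in cardiomyocytes. Valve mesenchyme stood above cardiomyocytes of the same library in 3 of 4 libraries, and the part of recombination in the Hapln1 values was not tested. The median depth of valve mesenchyme cells was 854 UMIs in Lats1/2 CKO against 921 in control at E14.5, and 1635 against 1218 at E13.5, and the part of depth in these values was not tested.

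**Figure D4:**
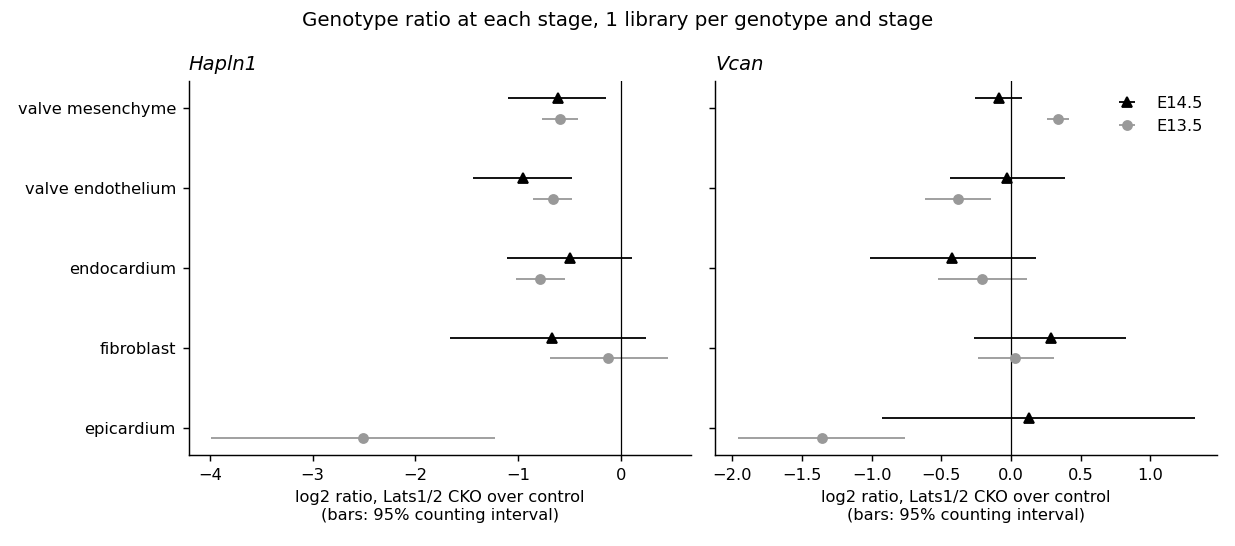
Log2 ratio of Lats1/2 CKO over control (x axis) for Hapln1 and Vcan in the 5 classes at each stage, with 95% counting intervals for 1 library per genotype and stage. Hapln1 lies below 0 wherever both libraries held a UMI, and Vcan lies on both sides of 0. Hapln1 in epicardium at E14.5, with 0 UMIs in control, is not drawn.

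Stage was read from the same fits, after the genotype comparison had been made. In valve mesenchyme Hapln1 was 243 and 372 CPM at E14.5 (Lats1/2 CKO and control), against 508 and 765 at E13.5. The stages did not overlap, and Hapln1 fell by 0.97 on the log2 scale (SE 0.20, adjusted p = 0.0414), where 0.0854% of genes tested were called lower. In valve endothelium it was 496 and 957 CPM at E14.5 against 1125 and 1781 at E13.5, and fell by 0.95 (SE 0.27, adjusted p = 0.0185), where 0.522% of genes were called lower. In endocardium it was lower without passing (log2 -0.78, SE 0.23, adjusted p = 0.0614), and in fibroblasts it was 108 and 171 CPM at E14.5 against 81.7 and 88.8 at E13.5 (log2 0.79, SE 0.34, adjusted p = 0.535).

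Neither valve call held in every alternative. DESeq2 called neither (adjusted p = 0.365 in valve mesenchyme and 0.319 in valve endothelium), and with clusters in place of gates the values were -0.67 and -0.44 with adjusted p of 0.259 and 0.447. Has2, Vcan and Cd44 in valve mesenchyme also stood lower in both E14.5 libraries than in both E13.5 libraries, at log2 -0.58 (SE 0.28), -0.42 (SE 0.18) and -0.58 (SE 0.31), and did not pass. Median depth differed between the stages as given above, 854 and 921 UMIs against 1635 and 1218. The cell filter also removed more cells at E14.5, 1797 and 1535 against 8 and 14. The part of either was not tested.

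Of the rest of the hyaluronan and versican pathway, 63 of 65 listed genes were in the table and 38 passed the filter in the class fit. In valve mesenchyme over fibroblasts 10 were higher, 7 lower and 21 not called. Over all genes tested 9.1% were called higher and 10.6% lower for this pair. The median log2 difference was 0.19, against -0.01 over all genes tested. Over valve endothelium 11 were higher and 10 lower, where 12.1% of all genes tested were called higher and 14.4% lower. Over endocardium 14 were higher and 16 lower (16.1% and 17.3% of all genes), and over epicardium 14 and 9 (14.3% and 15.7%). In valve endothelium over endocardium 8 were higher and 6 lower (6.09% and 4.57%). In the genotype fits edgeR and DESeq2 called 0 of the other genes in each of the 5 classes. At an unadjusted p under 0.05 stood 1 of 37 in valve mesenchyme, 3 of 23 in valve endothelium, 0 of 31 in endocardium, 6 of 28 in fibroblasts and 4 of 31 in epicardium in edgeR, beside the shares over all genes given for the same fits above. In DESeq2 it was 1 of 31 in epicardium and 0 in the other 4 classes, beside the lower DESeq2 shares over all genes given above.

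Synthesis of the sugar precursors split. Ugdh, which makes UDP-glucuronate, a building block of hyaluronan, averaged 347 CPM in valve mesenchyme against 129 in fibroblasts (log2 1.35, SE 0.17, adjusted p = 4.17e-08). Ugp2, which makes the UDP-glucose that Ugdh uses, was lower in valve mesenchyme (-1.81, SE 0.14, adjusted p = 5.65e-13), and of 6 tested genes of this list 4 were not called. The other synthases were near 0, with Has1 at 0 CPM in valve mesenchyme and 4.44 in epicardium and Has3 at most at 1.18 among the 5 classes, in endocardium. None of the other link proteins or hyalectans (aggrecan, brevican and neurocan) exceeded 3.03 CPM in the 5 classes, and 0 of 5 passed the filter.

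Of 3 tested genes that cross-link hyaluronan chains, 2 were higher in valve mesenchyme than in fibroblasts. Ptx3, a pentraxin that helps to cross-link hyaluronan, averaged 117 CPM against 21.8 (log2 2.43, SE 0.30, adjusted p = 4.83e-08), and Itih5, an inter-alpha-trypsin inhibitor heavy chain, 107 against 60.5 (1.01, SE 0.26, adjusted p = 0.00427). Tnfaip6, which transfers such heavy chains to hyaluronan, did not pass (0.61, SE 0.33). Of the breakdown genes, Cemip, which promotes hyaluronan degradation, was lower at 1.33 CPM against 24.8 (-3.55, SE 0.74, adjusted p = 0.00038), and the hyaluronidase gene Hyal2 was higher (0.55, SE 0.20, adjusted p = 0.0455). Tmem2, a cell surface hyaluronidase in mice, did not pass there (0.46, SE 0.21) and was at its highest of the 5 classes in endocardium, with 652 CPM.

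The partners of versican also differed. Of 5 versican-binding matrix genes, fibulin-2 (Fbln2; 1.94, SE 0.21), fibrillin-2 (Fbn2; 1.22, SE 0.12) and tenascin-C (Tnc; 0.77, SE 0.17) were higher in valve mesenchyme than in fibroblasts, and fibrillin-1 (Fbn1; -1.10, SE 0.16) was lower. Of the proteases that cleave versican, Adamts5 was lower, at 29.9 CPM in valve mesenchyme against 195 in fibroblasts (-2.61, SE 0.25, adjusted p = 5.44e-11), as was Adamts9, at 1.96 against 28.6 (-3.54, SE 0.56, adjusted p = 4.82e-06). Adamts1 (0.32, SE 0.18) and Adamts15 (-0.22, SE 0.41) did not pass. Adamts20 did not pass the filter on low counts and stood higher in valve mesenchyme, at 27.7 CPM against 0.269 in fibroblasts. For the chondroitin sulphate chains, Chst11 (3.24, SE 0.54), Csgalnact1 (1.58, SE 0.51) and Chsy1 (1.04, SE 0.19) were higher and Chpf (-0.83, SE 0.22) was lower. Chst11 averaged 37.1 CPM in valve mesenchyme against 2.43 in fibroblasts. Of 4 tested hyaluronan receptors other than Cd44, 0 were called, with Layn at 1.09 (SE 0.46, adjusted p = 0.0895), Lyve1 at 0.54 (SE 0.98), Hmmr at -0.37 (SE 0.22) and Stab1 at 0.28 (SE 0.76). Among Cd44's cytoskeletal partners, Ezr (-0.97, SE 0.31) was lower, and Msn (0.30, SE 0.14), Rdx (0.20, SE 0.12) and Nf2 (0.02, SE 0.31) did not pass.

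**Figure D5:**
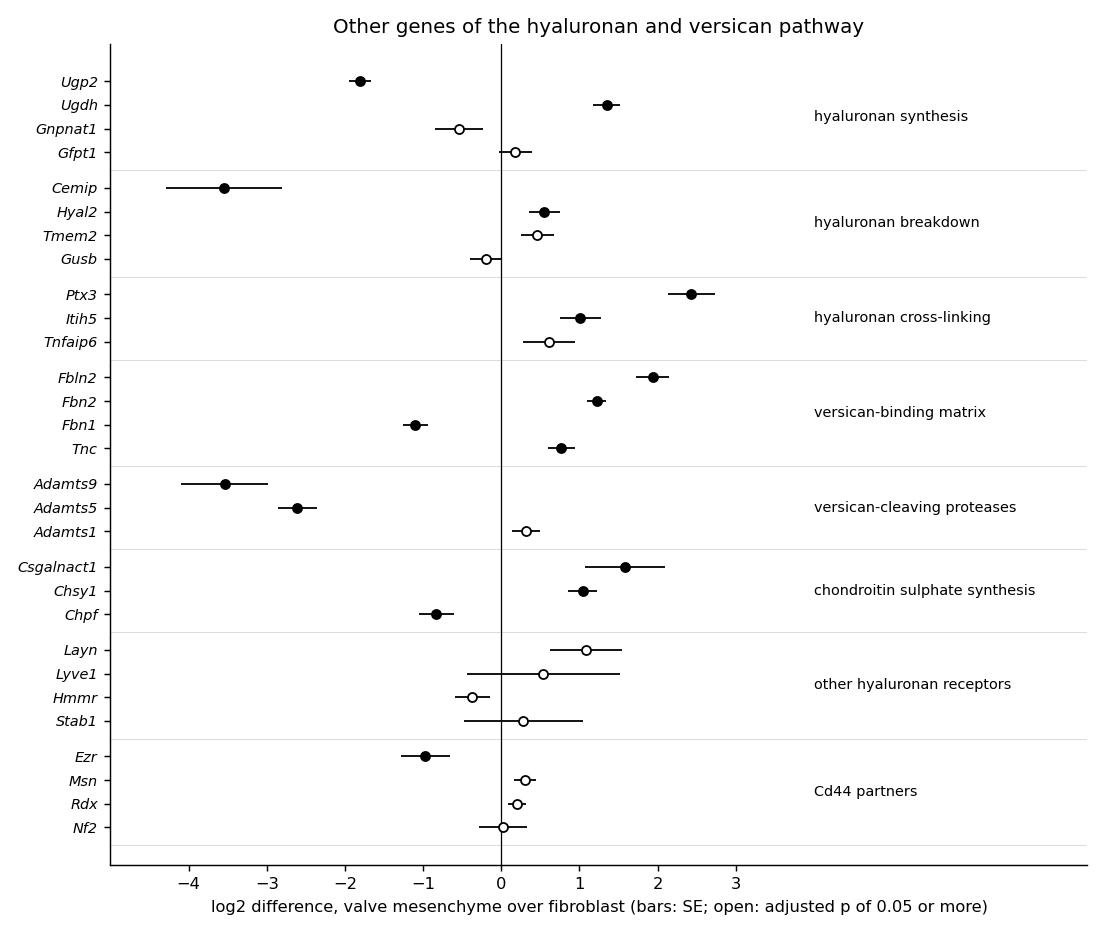
Log2 difference of valve mesenchyme over fibroblasts (x axis) with SE bars, from the edgeR fit over 4 libraries. Each list shows up to 4 genes of at least 50 CPM in any of the 9 classes, so Adamts15, Adamts20 and Chst11 are not drawn. Filled points passed an adjusted p of 0.05, and Cemip, Adamts9 and Adamts5 lie furthest below 0 while Ptx3 and Fbln2 lie furthest above.

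Across the mean profiles of the 9 classes, the genes most like each member were found among 6838 others of at least 50 CPM in a class, by Pearson's r of log2(CPM + 10) averaged over libraries, leaving out gate markers. The 9 classes share libraries and are not independent, so r is a description. Has2 was most like Dpysl4 (0.979), Ptx3 (0.975) and Shisa2 (0.968), which averaged 54.7, 117 and 118 CPM in valve mesenchyme and at most 21.8 elsewhere. Hapln1 was most like Edil3 (0.959), Wnk4 (0.947) and Gtpbp2 (0.946), each at its highest in valve endothelium. Vcan was most like Wnt16 (0.967), which averaged 76.7 CPM in valve mesenchyme and 63.4 in valve endothelium, then Yeats4 (0.955) and Ptpn2 (0.922), whose levels varied little between classes. For Cd44 these were Atp6v1g1 (0.920), Spop (0.907) and Rgs2 (0.797). Between the members r was 0.840 for Has2 and Vcan, 0.681 for Hapln1 and Vcan and 0.517 for Has2 and Hapln1, and Cd44 gave 0.070 with Has2, -0.167 with Vcan and -0.255 with Hapln1.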

How the data were processed

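The deposited table held whole UMI counts made by the authors, unnormalized, for all 4 libraries. Per the submitters' processing notes, reads were handled with STAR, Picard and mm10, and the sources used here give no versions, gene models or counting strand. Cell names ending in the stage and in wt or mut were read as the control and Lats1/2 CKO libraries of that stage, and 0 columns were left unused. The members, gene lists and gates were chosen with earlier results of these data known, and gate limits were set after marker values had been seen. No doublet caller was run. An alternative without the 5% of cells with most UMIs per library was added after seeing the data, as was the stage comparison.

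Counts were summed per class and library and tested with edgeR 4.0.16 (quasi-likelihood, TMM, filterByExpr, Benjamini-Hochberg at 0.05 over all genes tested). The class fit had library as a block and the genotype fit had stage as an additive factor, each over 4 libraries. The SE is the log2 value over the square root of F. DESeq2 1.42.0, RLE scaling, no filter, no library block, each library left out, stricter gates (3 SD) and Leiden clusters (scanpy 1.11.5, resolution 1.0, built without the members and the pathway genes) were alternatives. The fitting code was run on simulated counts with a fixed dispersion and no library effect. That run does not measure how the fits perform on these libraries. Intervals are at 95% (Poisson for levels, conditional binomial for ratios) and cover counting error only. Class depths per library ran from 110805 to 1269503 UMIs in the 5 classes. Pathway genes were named, by list, as up to 4 of at least 50 CPM in any of the 9 classes with the largest difference between valve mesenchyme and fibroblasts, and likeness used the 3 genes of highest r. Adamts15, Adamts20 and Chst11 were named outside this rule.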

Additional observations from a re-analysis of the deposited data

Results flagged for a closer look

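Vcan had genotype ratios of opposite sign at the 2 stages in 2 classes. In valve mesenchyme the log2 ratio of Lats1/2 CKO over control was -0.09 at E14.5 and 0.34 at E13.5, a difference of -0.43. In epicardium it was 0.13 at E14.5 and -1.36 at E13.5, a difference of 1.49. With 1 library per genotype and stage, the difference between the stages was not tested in either class. In both classes the 95% counting interval excluded 0 at E13.5 and held it at E14.5. The share of E13.5 epicardium cells with a Vcan UMI differed less between the genotypes. It was 2.75% in Lats1/2 CKO against 3.57% in control after thinning, and 13.8% against 11.6% without thinning. The epicardium genotype value over both stages also turned sign without the deepest cells, as given below.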

How the results depend on the processing

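Of 440 class values of the 4 genes under alternatives, 409 kept their direction and side of the threshold, as did 68 of 72 genotype values and 53 of 72 stage values. The cause of the changes below was not tested.

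Without the library block, Hapln1 was -1.23 in valve mesenchyme over valve endothelium and 0.94 over endocardium, Cd44 1.01 over valve endothelium and Has2 2.49 in valve endothelium over endocardium, none called. Cd44 in valve mesenchyme over valve endothelium was also not called in DESeq2 (0.96) and with stricter gates (0.94). With stricter gates Cd44 in valve endothelium over endocardium passed at 1.82. With each library left out in turn, Cd44 ranged from 0.49 to 2.03 in valve mesenchyme over valve endothelium, from -0.07 to 1.77 in valve endothelium over endocardium and from -2.03 to 0.25 in valve endothelium over epicardium. Has2 ranged from 1.76 to 3.37 in valve endothelium over endocardium, from -0.68 to 0.40 over fibroblasts, and from -2.25 to 0.70 in endocardium over epicardium. Has2 in valve endothelium over fibroblasts was -0.03 in DESeq2, and in endocardium over epicardium 0.48 without the deepest cells.

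Leaving out a library gave 1374 to 2168 called genes in valve mesenchyme over valve endothelium (2285 with all), 1808 to 2829 over endocardium (2882), 774 to 1573 over fibroblasts (1697), 1525 to 2482 over epicardium (2589), and 541 to 884 in valve endothelium over endocardium (919). Without the library block the counts were 793 over fibroblasts, 1622 over epicardium and 507 in valve endothelium over endocardium. Stricter gates gave 1910 over endocardium and clusters 2622 over fibroblasts.

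The genotype counts were small and unsteady. Valve mesenchyme (9 genes) gave 42 with no filter, 0 with stricter gates and 5 without the deepest cells. Valve endothelium (37) gave 23 with no filter, 1 in DESeq2, 19 with stricter gates, 7 with clusters and 15 without the deepest cells. Endocardium (43) gave 7 in DESeq2, 3 with clusters and 22 without the deepest cells. Fibroblasts (11) gave 7 with RLE scaling, 46 with no filter, 6 in DESeq2 and 2 with stricter gates. Epicardium (8) gave 3 with RLE scaling, 61 with no filter and 32 without the deepest cells. Genotype values that turned sign were Hapln1 in fibroblasts (0.28 without the deepest cells), Vcan in fibroblasts (-0.22 with stricter gates, -0.36 with clusters) and Vcan in epicardium (0.21 without the deepest cells), none called.

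The Hapln1 stage difference was not called in valve mesenchyme in DESeq2 (-0.96), with stricter gates (-0.90), with clusters (-0.67) or without the deepest cells (-1.03). In valve endothelium it was not called in DESeq2 (-0.95), with stricter gates (-0.94), with clusters (-0.44) or without the deepest cells (-0.74). It passed in endocardium with no filter (-0.87). Stage values near 0 turned sign for Vcan in valve endothelium (0.01) and epicardium (0.12) without the deepest cells, in endocardium with no filter (-0.02), and in fibroblasts with no filter (-0.13), stricter gates (-0.30) and clusters (-0.07). For Cd44 in epicardium they were 0.02 with RLE scaling, 0.14 in DESeq2, 0.08 with clusters and 1.15 without the deepest cells.

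The class fit is paired by library through its block, and the genotype fit by stage through its stage term. No other pairing of the genotype libraries was possible because the labels give no replicate numbers. Leaving a library out of a genotype fit leaves no residual degrees of freedom, so it was not run and the ratio at each stage stands with no test. Outside valve mesenchyme, Has2 counts were at most 14 UMIs in each of the other 4 tested classes and libraries.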
